A study of Mus musculus with 6 samples.

Results

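Matrix metalloproteases (Mmp genes), ADAMTS proteases (Adamts genes) and tissue inhibitors of metalloproteases (Timp genes) were followed in mouse embryonic salivary glands exposed to TGF-β1. Members were all genes whose symbol in the platform annotation was Mmp with a number and an optional letter, Adamts with a number, or Timp1 to Timp4. This gave 43 of the 19505 genes measured, namely 21 Mmp, 18 Adamts and 4 Timp genes, and each had a single probe set. The embryos were at a stage the labels call T13, and the excised glands were kept in culture for 72 hours, either untreated (controls 1 to 3) or with TGF-β1 (TGF-β1 1 to 3), and total RNA was measured on 6 Affymetrix arrays. The labels do not state the strain, the kind of salivary gland, the dose or the number of embryos behind an array, and all groups share the same culture time. Nor do they say whether replicates were separate cultures, so p-values measure the spread between these arrays, which may be technical.

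The enzymes of these families are zinc proteases that cut the extracellular matrix and proteins held in it. Most are made as inactive precursors, and Timp proteins block the active site. Gelatinases, collagenases, stromelysins and matrilysins are secreted Mmp classes, membrane-type Mmps sit on the cell surface, and several ADAMTS enzymes cleave the large proteoglycans aggrecan and versican. In branching glands, matrix breakdown and renewal around epithelial buds and clefts accompany growth, and TGF-β is known for changing the transcription of matrix proteases and inhibitors in many cell types.

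The 2 groups were compared with limma on log2 values, with each array weighted by its residual spread over all genes. A gene is said to have fallen or risen at an adjusted p under 0.05 over all 19505 genes in that fit. Differences are TGF-β1 minus control on the log2 scale. Control 3 stood apart, with correlations of 0.550 to 0.601 with the other arrays over all genes, and with Gapdh, a glycolytic enzyme, at 6.21 against 11.87 to 11.98 elsewhere; its weight was 0.0338. TGF-β1 3 had a weight of 0.398 and the other arrays 1.65 to 4.52. The limma fit with all arrays weighted equally passed 0 genes, with 104 genes lower and 285 higher at an unadjusted p under 0.05, so every call below rests on the weighting or, where stated, on leaving out control 3 and TGF-β1 3. Of the 10 salivary epithelial markers, 7 were above the arrays' medians (6.77 to 6.83) on each of the 5 arrays other than control 3, among them the water channel Aqp5, at 8.25 to 9.40 over the 6 arrays. The exceptions were the basal keratin Krt5, at 6.21 and 6.29 in TGF-β1 2 and 1, and the secretory proteins Smgc, at 4.60 to 6.25 in the controls, and Bpifa2, at 4.65 in control 2.

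Of the 43 members, 11 fell, 0 rose and 32 did not pass. Over all genes 3.44% fell, 3.45% rose and 6.88% passed in either direction in the same fit. The fallen members were Mmp2, Mmp3, Mmp11, Mmp14, Mmp16, Adamts1, Adamts5, Adamts6, Adamts17, Adamts19 and Timp1, which spans all 3 families: 5 of 21 Mmp, 5 of 18 Adamts and 1 of 4 Timp genes. The median difference over the 43 members was -0.23, against 0.01 over all genes, and 32 members were below 0. Without control 3 and TGF-β1 3, with equal weights, 9 members fell, all among the 11, and 0 rose, against 1.45% and 1.14% of all genes. With weights estimated gene by gene 10 members fell, against 2.21% of all genes. The calls need controls 1 and 2 and TGF-β1 1 and 2: with any of these 4 arrays left out, 0 members passed, and 0 of all genes were called lower. With TGF-β1 3 left out 2 members fell, Adamts5 and Timp1, against 1.03% of all genes. With control 3 left out and array weights kept, 8 fell, against 1.53% of all genes, the losses being Adamts19, Mmp11 and Mmp3. With control 3 left out and equal weights, 0 members and 0 of all genes passed.

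**Figure D1:**
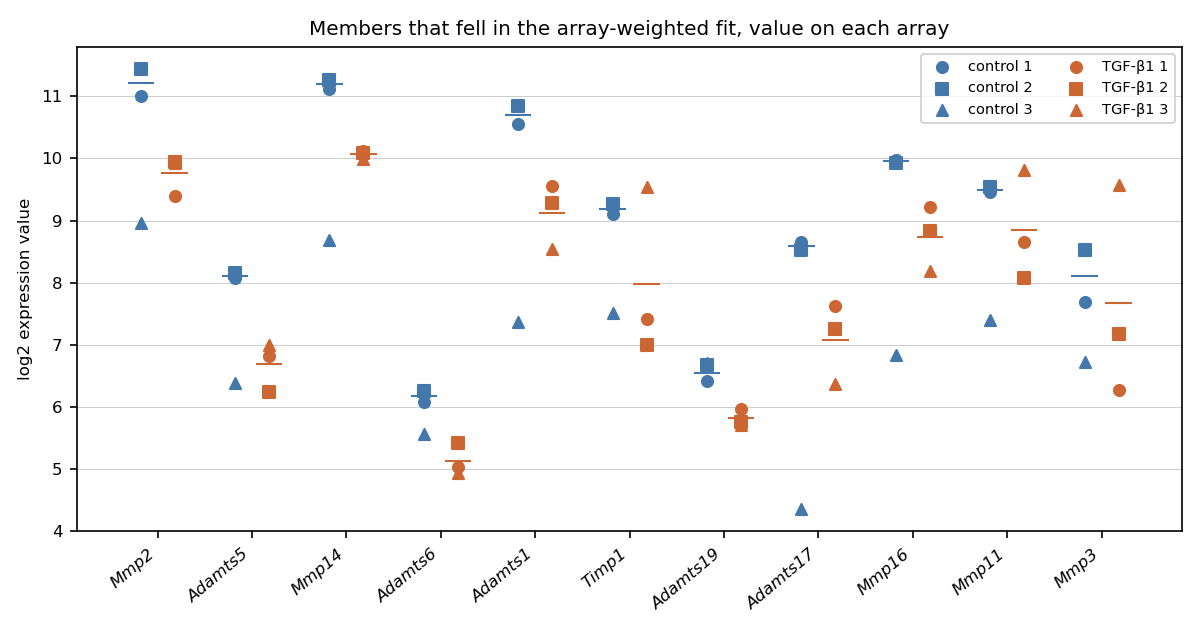
Log2 expression value (vertical axis) of the 11 members that fell, 1 point per array; symbols mark the replicate number, and short lines are the mean of controls 1 and 2 (blue) and of the 3 TGF-β1 arrays (orange). All TGF-β1 arrays lie below controls 1 and 2 except TGF-β1 3 for Timp1, Mmp11 and Mmp3, and control 3 lies below controls 1 and 2 for all but Adamts19.

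Promoter letters are shown for Mmp cluster genes, most of which share an AP-1 motif, and for fallen members outside the cluster, so that the members' start regions can be compared. RefSeq promoter windows (build GRCm38.p6) were found for 29 of the 43 members, and the 250 bases before the annotated start were searched on both strands. The AP-1 motif TGANTCA, bound by Fos and Jun proteins, was in the windows of 8 members and in 6.75% of all 32851 windows. All 8 are among the 9 measured genes of the Mmp cluster on chromosome 9, and 0 of the 20 other members with a window held it. The GC box GGGCGG was in 14 of those 20 and in 0 of the 9 cluster genes, against 32.7% of all windows. The TATA box TATAAA was in 7 of the 9 cluster genes and 2 of the 20 others, against 12.4% of all windows. A match describes the letters only.

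Below are the 100 bases before the annotated start of 5 cluster genes, with TGANTCA and TATAAA in capitals.
Mmp3, chr9:7445722-7445821, plus strand: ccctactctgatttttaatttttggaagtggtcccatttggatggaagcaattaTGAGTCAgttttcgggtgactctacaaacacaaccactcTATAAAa
Mmp10, chr9:7502242-7502341, plus strand: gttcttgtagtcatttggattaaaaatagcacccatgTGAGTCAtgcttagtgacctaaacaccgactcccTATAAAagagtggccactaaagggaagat
Mmp13, chr9:7272414-7272513, plus strand: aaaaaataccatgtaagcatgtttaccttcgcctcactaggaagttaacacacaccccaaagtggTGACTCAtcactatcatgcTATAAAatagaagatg
Mmp12, chr9:7347274-7347373, plus strand: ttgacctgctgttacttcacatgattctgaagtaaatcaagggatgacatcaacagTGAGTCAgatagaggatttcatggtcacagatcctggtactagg
Mmp8, chr9:7558329-7558428, plus strand: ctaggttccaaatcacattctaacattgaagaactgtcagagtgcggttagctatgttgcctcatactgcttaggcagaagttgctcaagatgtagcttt
The motif begins 46 bases before the annotated start in Mmp3, 63 in Mmp10, 35 in Mmp13 and 44 in Mmp12, and Mmp8 holds neither motif. Mmp12 has another annotated start upstream, whose window lacks the AP-1 letters.

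The same stretch is shown for the 5 fallen members outside the cluster that have a window, with GGGCGG (or its reverse complement) and TATAAA in capitals.
Mmp14, chr14:54431498-54431597, plus strand: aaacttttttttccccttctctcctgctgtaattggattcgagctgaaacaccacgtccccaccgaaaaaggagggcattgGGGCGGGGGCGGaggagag
Mmp11, chr10:75932503-75932602, minus strand: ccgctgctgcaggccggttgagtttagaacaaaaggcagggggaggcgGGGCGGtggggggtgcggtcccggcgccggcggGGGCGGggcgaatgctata
Timp1, chrX:20870066-20870165, plus strand: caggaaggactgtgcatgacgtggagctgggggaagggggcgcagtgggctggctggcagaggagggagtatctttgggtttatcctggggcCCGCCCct
Adamts1, chr16:85803114-85803213, minus strand: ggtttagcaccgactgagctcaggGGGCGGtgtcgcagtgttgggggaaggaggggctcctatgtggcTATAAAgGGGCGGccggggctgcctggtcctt
Adamts17, chr7:66839635-66839734, plus strand: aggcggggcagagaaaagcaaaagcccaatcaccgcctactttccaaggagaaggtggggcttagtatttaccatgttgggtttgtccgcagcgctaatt
The Adamts17 stretch holds none of these letters, but it does not end at the start of that gene in the RefSeq gene table. Of the 6 fallen members with a window, 4 held the GC box and 1, Mmp3, the AP-1 motif. Within the 250 bases searched, the TGF-β inhibitory element described in the stromelysin promoter was in 0 of the 29 members' windows and 4.15% of all windows. Letters further upstream were not searched, so the search cannot tell whether these promoters lack the element.

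Among the gelatinases, which cut denatured collagen and basement membrane collagen, Mmp2 fell and Mmp9 did not pass. Mmp2 (Entrez gene 17390) was at 10.998, 11.44 and 8.96 in controls 1 to 3 and at 9.40, 9.95 and 9.93 in the TGF-β1 arrays. The 3 TGF-β1 arrays lay below controls 1 and 2 and above control 3. Mmp2 fell by 1.70 ± 0.20 (SE, adjusted p = 8.81e-04), a 3.24-fold lower level, and over the 18 alternative settings its adjusted p ran from 5.78e-09 to 0.979. Mmp9 was at 6.17, 6.25 and 6.69 in the controls and at 6.10, 6.01 and 7.74 with TGF-β1, so that TGF-β1 3 was above all other arrays and the other 2 below them. Its difference was -0.07 (95% interval -0.54 to 0.40).

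Of the 5 membrane-type enzymes 2 fell, among them the activator of the Mmp2 precursor. Mmp14 (Entrez gene 17387), which activates that precursor on the cell surface in a complex with Timp2, was at 11.11, 11.27 and 8.69 in the controls and at 10.12, 10.09 and 9.99 with TGF-β1. These 3 values lay close together, below controls 1 and 2 and above control 3. The fall was 1.11 ± 0.15 (adjusted p = 0.00185), against a difference of -0.29 with equal weights, and the difference was 0.12 without control 1 and 0.20 without control 2. Mmp16 (Entrez gene 17389), a related membrane-anchored enzyme, was at 9.98, 9.93 and 6.84 in the controls and at 9.21, 8.83 and 8.19 with TGF-β1, a fall of 0.90 ± 0.20 (adjusted p = 0.0192). With equal weights Mmp16 was at -0.18, without control 1 at 0.64 and without control 2 at 0.61. The other 3 membrane-type members did not pass: Mmp17 and Mmp25, which are held by a lipid anchor, differed by -0.30 and 0.09, and Mmp24 by -0.09.

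Of the 4 stromelysins and matrilysins 2 fell, and in both TGF-β1 3 went against TGF-β1 1 and 2. Mmp11 (Entrez gene 17385), stromelysin-3, which is activated inside the cell, was at 9.45, 9.55 and 7.39 in the controls and at 8.65, 8.08 and 9.81 with TGF-β1. Mmp3 (Entrez gene 17392), stromelysin-1, which cuts many matrix proteins and activates other Mmp precursors, was at 7.69, 8.53 and 6.72 in the controls and at 6.27, 7.18 and 9.57 with TGF-β1. In each gene TGF-β1 3 was the highest of the 6 arrays, so the groups overlap. With array weights Mmp11 fell by 0.98 ± 0.23 (adjusted p = 0.0257) and Mmp3 by 1.54 ± 0.41 (adjusted p = 0.0440), whereas with equal weights both differences were above 0, at 0.050 and 0.025. The fit that leaves out control 3 and TGF-β1 3 did not pass Mmp3 either. Over the alternatives the adjusted p of Mmp3 ran from 2.50e-07, in the replicate block with array weights, to 0.992. The matrilysin Mmp7 and stromelysin-2, Mmp10, differed by -0.19 and 0.22, and neither passed.

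No collagenase passed. The collagenases, which make the opening cut in fibrillar collagen, were represented by Mmp1a, Mmp1b, Mmp8 and Mmp13, with differences from -0.21 to 0.25. Mmp13, the brightest of them, was at 5.60, 5.29 and 6.37 in the controls and at 5.18, 5.04 and 5.84 with TGF-β1, so that the groups overlapped. Mmp1a, Mmp1b and Mmp8 were below the lower quartile of all genes on each of the 5 arrays other than control 3 (5.19 to 5.25), as were Mmp7, Mmp10, Adamts8 and Timp4. The table holds no measure of background, so a fall from such values may not be measurable. Mmp1a and Mmp1b are near copies whose signals may not be told apart.

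The measured members of chromosome 9 include 9 of a run of 10 Mmp genes with no other protein-coding gene between them in the RefSeq table (assembly GRCm38.p6); Mmp27 was not analysed here. Of these 9, 1 fell, Mmp3, and 8 did not pass. Mmp12, the elastase of macrophages, was above the median of all genes on the 5 arrays other than control 3, at 10.16 and 10.55 in controls 1 and 2 and at 9.54, 10.19 and 10.89 with TGF-β1. It was at 5.50 in control 3. The groups overlapped and the difference was -0.58 (95% interval -1.18 to 0.01), but 1.47 with equal weights. Of the macrophage markers, 8 of 9 were measured and 0 passed, with a median difference of -0.22. The receptor Csf1r differed by -0.38 and the lysozyme Lyz2 by -0.93 (95% interval -1.74 to -0.12). Ptprc, C1qb and Cd14 lay above 0, at 0.17, 0.04 and 0.03. The list's median level lay at 6.66 and 7.11 in controls 1 and 2 and between 6.51 and 7.86 with TGF-β1. In the 7 cluster genes other than Mmp3 that hold the AP-1 letters, the difference lay between -0.58 and 0.22.

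**Figure D2:**
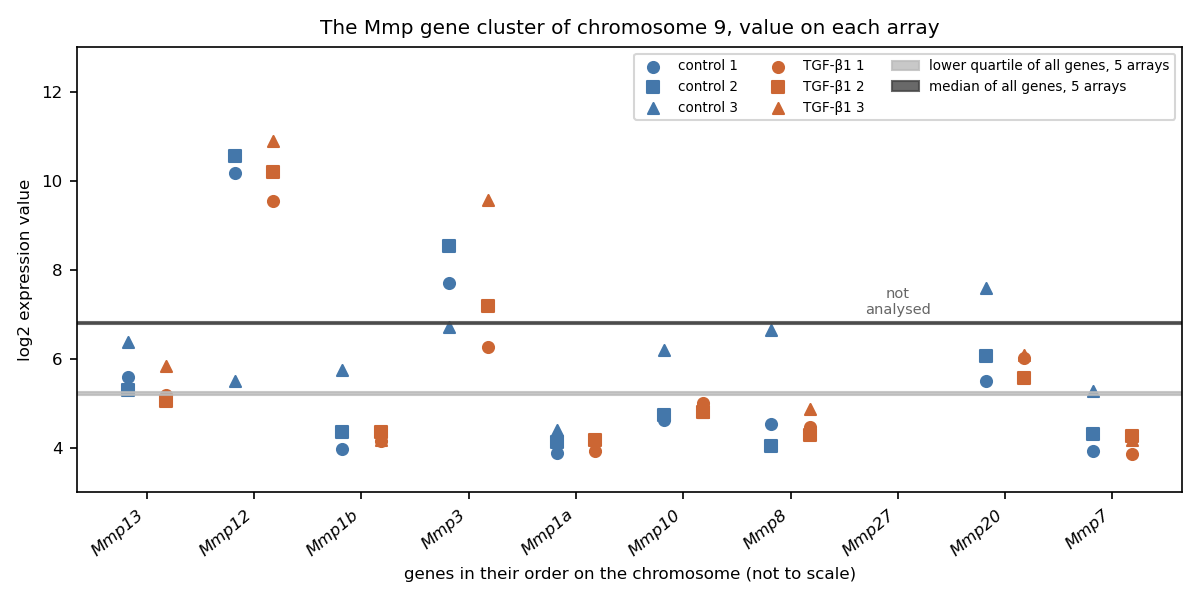
Log2 expression value (vertical axis) of the Mmp genes of the chromosome 9 cluster in chromosomal order, 1 point per array; bands mark the lower quartile (light) and the median (dark) of all genes on the 5 arrays other than control 3. Mmp12 lies above the median on all 5 of those arrays and Mmp3 on 4 of them (6.27 on TGF-β1 1), and the other 7 measured genes stay below it on all 5.

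The remaining Mmp members did not pass. Mmp19 was at 6.45, 7.44 and 7.26 in the controls and at 6.39, 6.28 and 6.77 with TGF-β1, a difference of -0.80 ± 0.23 (adjusted p = 0.0572). Mmp28, epilysin, was at 6.67, 6.64 and 8.96 in the controls and at 6.56, 6.47 and 6.33 with TGF-β1. All TGF-β1 arrays were below all controls, but the gap to controls 1 and 2 was small and the difference was -0.14. Mmp20, the enzyme of enamel, Mmp21, which acts in left-right patterning, and Mmp23 differed by -0.04, 0.39 and -0.23.

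Of the 7 enzymes that cleave aggrecan or versican, 2 fell. Adamts5 (Entrez gene 23794), an aggrecanase, was at 8.07, 8.15 and 6.39 in the controls and at 6.81, 6.24 and 7.003 with TGF-β1. Adamts1 (Entrez gene 11504), which cleaves both proteoglycans, was at 10.55, 10.85 and 7.37 in the controls and at 9.55, 9.28 and 8.54 with TGF-β1. In both genes all TGF-β1 arrays lay below controls 1 and 2. Adamts5 fell by 1.49 ± 0.19 (adjusted p = 0.0011) and Adamts1 by 1.34 ± 0.20 (adjusted p = 0.00308), 2.80-fold and 2.54-fold lower levels. With equal weights the differences were -0.85 and -0.46, and that of Adamts1 was 0.30 without control 1 and 0.44 without control 2. The other 5 did not pass. The second aggrecanase, Adamts4, differed by -0.02 (95% interval -0.47 to 0.42), the versican-cleaving Adamts9 and Adamts20 by 0.14 and -0.63, and Adamts8 and Adamts15 by -0.40 and 0.12. Of the substrates themselves, named after their values were seen, versican (Vcan) differed by -0.49 ± 0.21 and aggrecan (Acan) by -0.01 ± 0.16, and 0 of the 13 substrate genes passed; the smallest p was that of neurocan (Ncan), at -0.50.

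Of the 7 Adamts genes without a common substrate class 3 fell. Adamts6 (Entrez gene 108154), a relative of the fibrillin-binding Adamts10, was at 6.08, 6.26 and 5.57 in the controls and at 5.04, 5.42 and 4.94 with TGF-β1. Adamts19 (Entrez gene 240322) was at 6.41, 6.68 and 6.72 in the controls and at 5.97, 5.77 and 5.71 with TGF-β1. These 2 genes had all TGF-β1 arrays below all 3 controls. They fell by 1.05 ± 0.16 (adjusted p = 0.00281) and 0.72 ± 0.15 (adjusted p = 0.0129), and with equal weights the differences were of similar size, -0.84 and -0.79, at unadjusted p of 0.0417 and 0.0321 and an adjusted p of 0.776 each. They were the 2 members at an unadjusted p under 0.05 in that fit, where 0.533% of all genes were lower and 1.46% higher at such a p. Adamts17 (Entrez gene 233332), also tied to fibrillin matrix, was at 8.65, 8.52 and 4.35 in the controls and at 7.62, 7.25 and 6.36 with TGF-β1, a fall of 1.11 ± 0.23 (adjusted p = 0.0134) that shrank to 0.10 below the controls with equal weights, where control 3 counts in full. Adamts10, Adamts13 (which cleaves von Willebrand factor), Adamts16 and Adamts18 differed by -0.29, 0.30, 0.07 and 0.13. Adamts10, the brightest of this class, was at 8.42, 8.84 and 7.38 in the controls and at 8.45, 8.52 and 7.57 with TGF-β1, and the groups overlapped.

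The procollagen N-proteinases Adamts3 and Adamts14, which trim procollagen, differed by -0.53 ± 0.15 (adjusted p = 0.0615) and -0.33 ± 0.26, and neither passed. Adamts14 was at 6.75, 7.42 and 8.01 in the controls and at 7.25, 6.32 and 6.89 with TGF-β1, with overlapping groups. Of the enzymes that bind and cleave the cartilage protein COMP, Adamts7 had the largest positive difference of the 43 members. It was at 8.52, 7.93 and 8.09 in the controls and at 8.97, 8.74 and 7.34 with TGF-β1, a difference of 0.71 ± 0.23 (adjusted p = 0.0987). TGF-β1 1 and 2 were above and TGF-β1 3 below all controls. Adamts12 differed by -0.23.

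Of the 4 inhibitors, 1 fell. Timp1 (Entrez gene 21857), a secreted inhibitor that forms a complex with the Mmp9 precursor, was at 9.11, 9.27 and 7.51 in the controls and at 7.42, 6.99 and 9.53 with TGF-β1. TGF-β1 3 was the highest of the 6 arrays while TGF-β1 1 and 2 were the lowest. The weighted fall was 1.82 ± 0.28 (adjusted p = 0.00331), and 1.98 without control 3 and TGF-β1 3. Over the alternatives the difference stayed below 0, between -2.06 and -0.61. Its adjusted p ran from 3.37e-12, in the replicate block with array weights, to 0.979. Timp2, which takes part in the activation of the Mmp2 precursor by Mmp14, was at 10.67, 10.86 and 7.53 in the controls and at 10.16, 10.22 and 10.56 with TGF-β1. All 3 were below controls 1 and 2, and the difference of -0.59 ± 0.17 did not pass (adjusted p = 0.0660); with equal weights it was 0.63. Timp3, which is bound to matrix and also inhibits ADAMTS enzymes, was at 7.95, 7.62 and 7.51 in the controls and at 7.40, 7.55 and 7.56 with TGF-β1, a difference of -0.24 (95% interval -0.57 to 0.08). Timp4 was at 4.15, 4.30 and 5.27 in the controls and at 4.42, 4.13 and 4.26 with TGF-β1, a difference of 0.05 (95% interval -0.28 to 0.38).

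**Figure D3:**
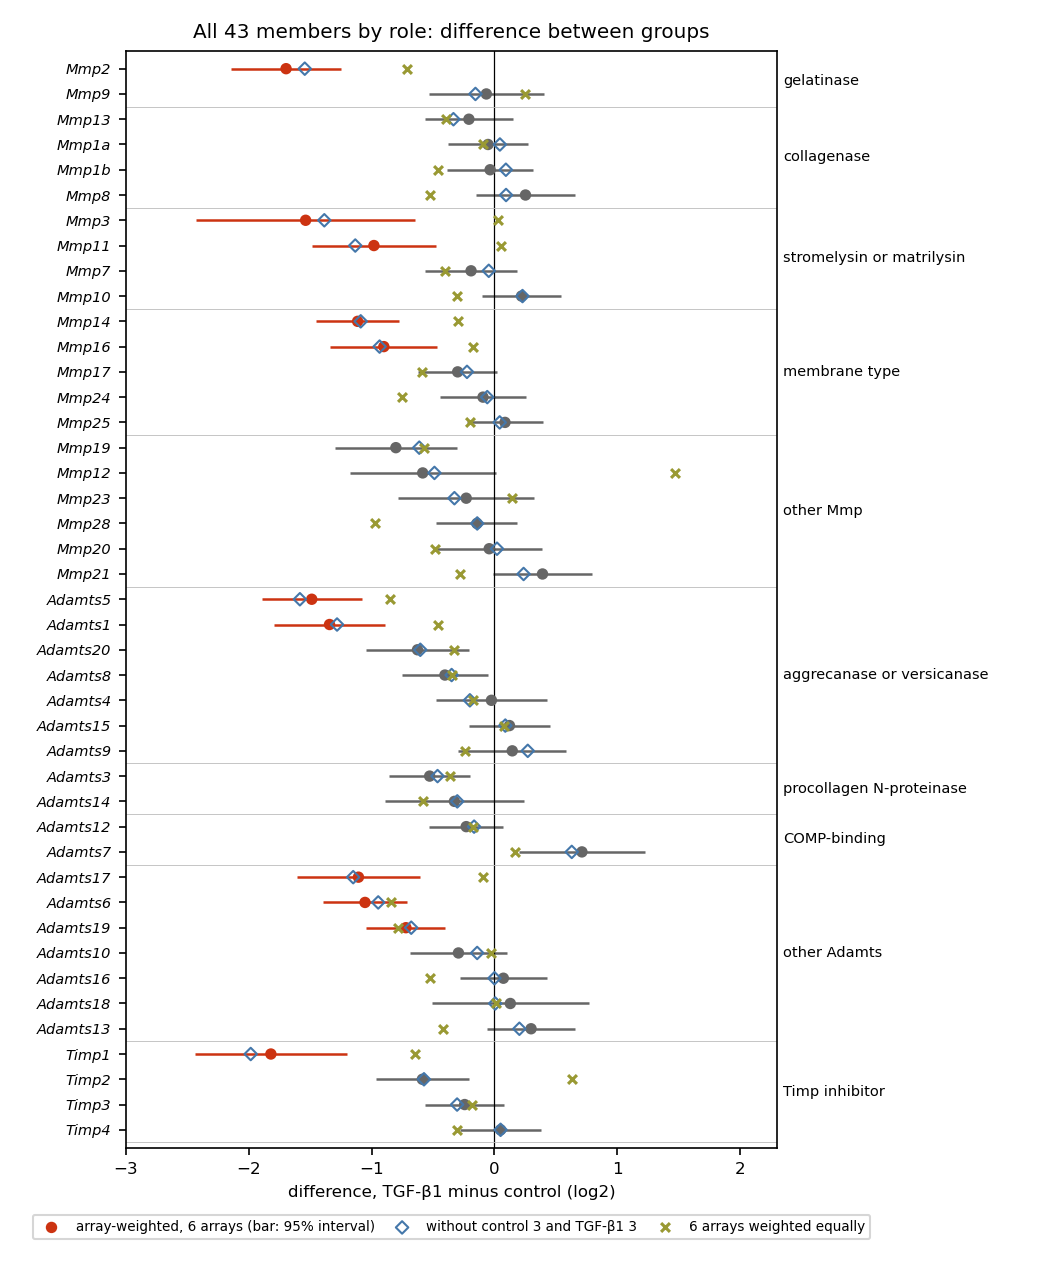
Difference between the groups (TGF-β1 minus control, log2) for the 43 members by role; filled points with 95% intervals are the array-weighted fit of 6 arrays (red where the adjusted p is under 0.05), open diamonds the fit without control 3 and TGF-β1 3, crosses the fit with equal weights. All 11 red points lie below 0 and close to their diamonds, while the crosses lie nearer to or above 0 for most of them.

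The members were also grouped by their level on the arrays. Of the 13 members above the median of all genes on each of the 5 arrays other than control 3, 6 fell: Mmp2, Mmp14, Mmp16, Mmp11, Adamts1 and Timp1. Among all 8484 genes that met the same condition 4.57% fell and 4.76% rose. Of the 7 members below the lower quartile on those arrays, 0 passed, against 0.302% of such genes that fell. Of the 23 members in neither band 5 fell, against 3.83% of such genes. The shares of members were not compared by a test. All TGF-β1 arrays were below controls 1 and 2 for 13 members and above them for 1, Mmp10, against 12.3% and 12.8% of all genes. They were below all 3 controls for 3 members, Adamts6, Adamts19 and Mmp28, against 5.78% of all genes, and above all 3 for 0, against 5.8%.

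Among the treated arrays, TGF-β1 3 departed from its 2 partners in 8 members. TGF-β1 3 was above both TGF-β1 1 and TGF-β1 2 by over 1 log2 unit for 5 members, Mmp3, Mmp9, Mmp11, Mmp23 and Timp1, and below both by over 1 for 3, Adamts7, Adamts9 and Adamts18; over all genes the shares were 5.54% and 2.46%. For the neutrophil protein S100a8 the treated arrays gave 3.88, 3.80 and 7.40, and for the macrophage receptor Mrc1 6.17, 6.49 and 8.52. These markers had the largest excess of TGF-β1 3 over its partners in their lists, and some others did not follow. The neutrophil markers Elane and Mpo gave 6.43, 6.62 and 5.61, and 5.35, 5.54 and 5.38. The macrophage receptor Csf1r gave 7.21, 7.66 and 7.52. An excess in TGF-β1 3 was not confined to these lists. The epithelial keratin Krt14 gave 9.97, 9.52 and 11.39, and Hprt, a gene every cell uses, 8.49, 8.30 and 9.76, whereas Gapdh gave 11.89, 11.98 and 11.87. The median of the 7 neutrophil markers was 6.05 in TGF-β1 3, against 5.35 to 5.57 in the other arrays except control 3 (7.08). The part of these cells in the members' values was not tested.

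**Figure D4:**
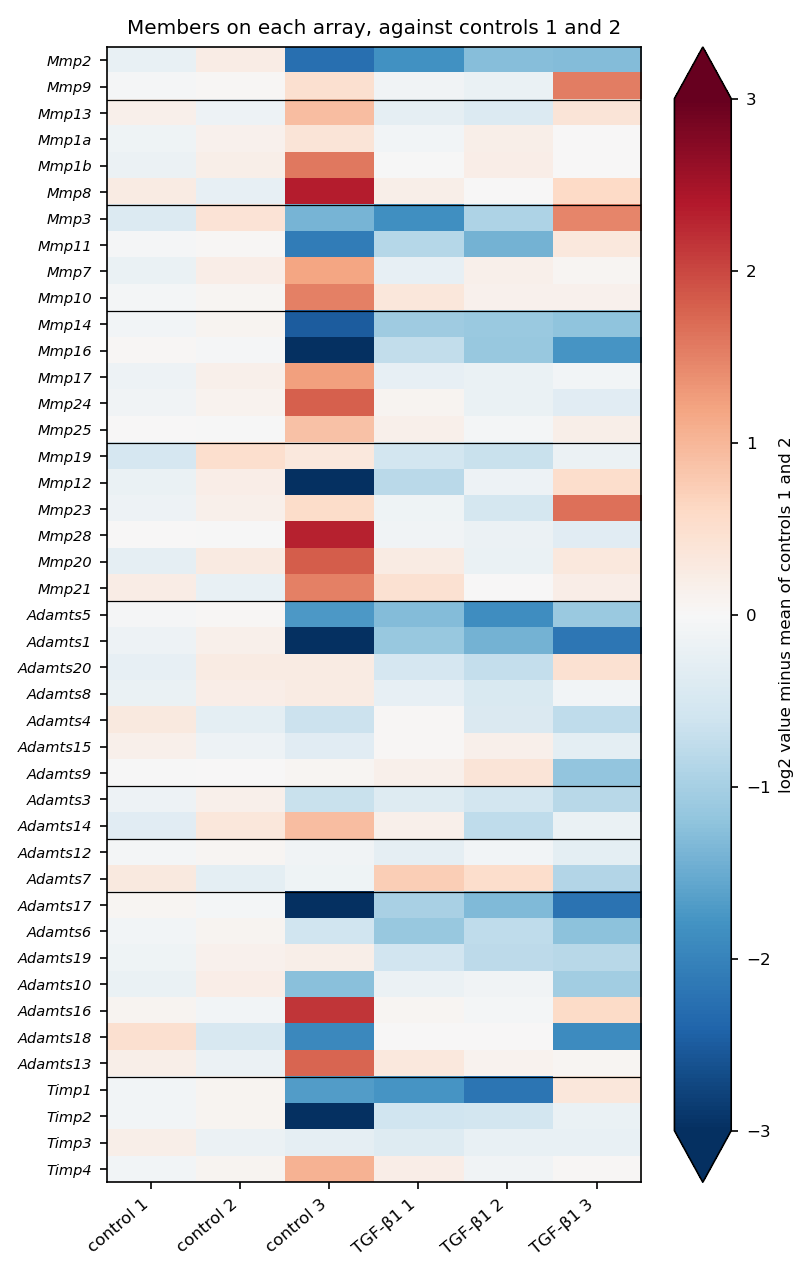
Each of the 43 members on each array relative to controls 1 and 2 (their mean subtracted, log2 units) (colour scale cut at -3 and 3), in the order of the plot of differences by role, with lines between roles. Control 3 differs from the other arrays in both directions, and TGF-β1 3 shows Mmp9, Mmp3 and Mmp23 above controls 1 and 2.

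Markers of mesenchyme and epithelium moved beside the members. Of 9 measured mesenchymal markers 2 fell, the transcription factors Twist1 by 0.96 and Prrx1 by 1.03, and 0 rose. The median difference was -0.44. Without control 3 and TGF-β1 3 neither Twist1 nor Prrx1 passed (adjusted p = 0.0716 and 0.0712). With equal weights Twist1 was at 0.03 and Prrx1 at 0.76. The fibroblast proteoglycan Dcn differed by -0.58 and Col1a1 by -0.35, and with equal weights by 1.58 and -0.45. The median level of that list was 9.51 and 10.06 in controls 1 and 2 and 9.11 to 9.67 in the TGF-β1 arrays. Of 10 salivary epithelial markers 5 rose and 0 fell, with a wide range: the secretory proteins Bpifa2 and Smgc by 7.87 and 4.86, Sox10 by 1.13, Aqp5 by 1.09 and the adhesion protein Epcam by 1.01. The basal keratins Krt5 and Krt14 differed by -0.49 and -0.59 and did not pass. In whole glands, fewer cells of a type and less RNA per cell cannot be told apart, and the part of cell composition in the falls of Mmp2, Adamts5 and the others was not tested. Cartilage, skeletal muscle and neuron lists had medians of 5.28 to 6.75 on the 5 arrays other than control 3. Cnmd rose in the cartilage list by 3.35, and 3 of 4 measured neuron markers rose, Tubb3, Elavl4 and Stmn2. Without control 3 and TGF-β1 3 these 3 did not pass (adjusted p = 0.0934, 0.0686 and 0.0710). Elavl4 was below the lower quartile of all genes on the 5 arrays other than control 3. In the endothelial list the growth factor receptor Kdr fell by 1.35 and the other 5 did not pass.

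Other genes of matrix proteolysis gave a mixed picture. Of 62 measured genes in 7 lists, 6 fell, 2 rose and 54 did not pass, and without control 3 and TGF-β1 3 a single one fell, Adam12. Of 10 membrane-bound ADAM proteases 4 fell and 0 rose: Adam12 by 1.41 ± 0.19, Adam23, which lacks protease activity, by 1.77 ± 0.27, Adam19 by 0.83 ± 0.17, and Adam8. In the plasminogen system 1 of 6 fell, the tissue activator Plat, by 0.59 ± 0.16 (adjusted p = 0.0480). Among 11 activators, inhibitors and clearance receptors 1 fell, the proprotein convertase Pcsk5, by 0.79 ± 0.18. Named for their roles after their values were seen, Reck, a membrane inhibitor of Mmps, differed by -0.69 and Furin, which activates the Mmp14 and Mmp11 precursors, by -0.10, and neither passed. Of 7 ADAMTS-like proteins, which resemble ADAMTS enzymes without the protease domain, 2 rose, Thsd4 by 0.75 ± 0.16 and Papln by 0.94 ± 0.22, and 0 fell. No member of the astacin and meprin list (7 genes) or of the cathepsin and cystatin list (8 genes) passed; their smallest p-values were those of Pcolce, a procollagen proteinase enhancer, at -0.74, and the lysosomal protease Ctsl, at -0.76.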

How the data were processed

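Total RNA of 6 gland samples, 3 per group, was measured on 1-colour Affymetrix arrays from 6 µg of RNA per the labels' protocols. The deposited log2 values per probe set came from RMA (version not given), as the authors report per the submitters' processing notes, and were used as deposited. Their columns do not share a single distribution: the interquartile range over genes was 2.02 in control 3 and 3.13 to 3.21 in the others. Of 22206 probe sets 19572 had 1 gene symbol, 0 several and 2634 none here; the probe set of highest mean stood for a gene, which gave 19505 genes. All 43 members matched the RefSeq gene table by Entrez identifier with the same symbol. Mmp15, Mmp27 and Adamts2 were not analysed here.

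The comparison used lmFit and eBayes of limma 3.58.1 (R 4.3.3; two-sided, group as the only term, Benjamini-Hochberg over all genes) with weights from arrayWeights. That estimation stopped before its tolerance was reached and the fit then takes the weights as known, so p-values may be too small; by how much was not measured. The fits were also run on simulated data with independent noise of a set spread on each array. Array weights assume such noise, so that run cannot measure false calls in these data. Members, lists, the weighting and the alternatives were chosen with earlier results of these data known. Values per array are given for members that passed, members whose groups do not overlap, the Timp genes and the brightest member of each role. Those of Mmp9 and Mmp19 were added after their values were seen. Of 65 related genes listed, 62 were measured. Arrays carry no read depth, so their number limits the precision. Alternatives covered the weights, normalization, low values, a replicate block, the threshold and single arrays left out.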

Additional observations from a re-analysis of the deposited data

How the results depend on the processing

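With equal weights on 6 arrays, with control 3 left out and equal weights, and with a replicate block and equal weights, 0 members, 0 genes and 0 related genes passed in either direction. In the equal-weight fits of 6 arrays, with or without the block, Mmp11 was at 0.050, Mmp3 at 0.025, Timp2 at 0.63 and Timp4 at -0.30. Genes lower and higher numbered 432 and 442 with gene-by-gene weights (related genes 3 lower, 0 higher), 299 and 245 without control 3 with array weights (2 and 0), and 282 and 223 without control 3 and TGF-β1 3 (1 and 0). Quantile normalization left 6 members, 245 and 241 genes, and 2 and 0 related genes; median centring 5 members, 151 and 132 genes, and 1 and 0. At an adjusted p under 0.01 there were 6 members, 276 and 262 genes, and 2 and 0 related genes. Without the lowest 33.3% of genes by mean, 30 members were tested among 13003 genes. Of these members 16 were lower and 1 higher, against 2183 genes lower (16.8%) and 2166 higher. Related genes numbered 25 lower and 5 higher, and the median member difference was -0.37. The cause of these shifts was not tested.

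Leaving out 1 array at a time gave 0 to 8 members lower, 0 to 299 genes lower and 0 to 245 higher, 0 to 2 related genes lower and 0 higher, and a median member difference of -0.51 (without control 1) to -0.095 (without TGF-β1 2). The sign turned without control 1 and without control 2 for Mmp14 (range over all arrays left out -1.09 to 0.20), Adamts1 (-1.59 to 0.44), Adamts17 (-1.78 to 0.98), Mmp16 (-1.42 to 0.64), Mmp11 (-1.05 to 0.10), Timp2 (-0.56 to 1.10) and Timp4 (-0.47 to 0.17). For Mmp3 (-1.37 to 0.69) it turned without TGF-β1 1 and without TGF-β1 2. Mmp2, Adamts5, Adamts19 and Timp1 were below 0 in all 18 alternatives, and Adamts6 in all 17 that tested it. Mmp28 and Timp3, which did not pass, were also below 0 in all 18, so a constant sign does not set fallen members apart. These alternatives reuse the same arrays and are not independent checks. With equal weights, for instance, the replicate block leaves the differences as they are without it. The stricter threshold likewise leaves the differences of the main fit unchanged.

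Deviations of same-numbered arrays from their group means correlated at -0.0662, -0.0078 and -0.0501. Control 3 is part of the control mean, so these correlations cannot show whether the replicate numbers pair the arrays. A replicate block with array weights gave 16 members lower and 1 higher, 1281 and 1221 genes, and 17 and 4 related genes, with Timp4 at -0.048. Limits are 3 arrays a group, weights that set control 3 almost aside, no measure of background, and markers of several cell types that moved with the treatment.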
